A study of Mus musculus with 61 samples.

Results

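Histone lysine demethylases are the enzymes that take methyl groups off the lysines of histone tails, and 10 of their genes (Kdm1a, Kdm1b, Kdm2b, Kdm3a, Kdm4a, Kdm4c, Kdm5a, Kdm5b, Kdm6a and Kdm6b) are described here across the oocytes, preimplantation embryos and embryonic stem cells of a mouse study of the KRAB zinc finger protein ZFP708. The members were taken by gene symbol, and all 10 were among the 18396 distinct genes of the table. RNA was sequenced in 61 libraries from 12 conditions. Wild-type (WT) libraries came from GV oocytes (n = 7), zygotes (n = 7), 2-cell embryos (n = 7), blastocysts (n = 3) and mESCs (n = 3). Knockout (KO) libraries came from GV oocytes (n = 7), zygotes (n = 7), 2-cell embryos (n = 8) and blastocysts (n = 3) labelled as maternal null for ZFP708, and from mESCs (n = 3) labelled as maternal and zygotic null. The remaining pair of conditions was E14, an established mouse ES cell line, unmodified (control, n = 3) or overexpressing FLAG-tagged ZFP708 (OE, n = 3).

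KO embryos had a mother without functional ZFP708 and a wild-type father, so they carried a paternal wild-type copy of the gene, and the mutant allele is a small frameshift deletion that leaves its RNA in place. Zygotes, 2-cell embryos and blastocysts were collected after natural mating, and the ages of the mothers are not given in the sources used here. The OE cells had received a piggyBac transgene, puromycin selection and a sort for GFP, and nothing states that the control E14 cells did, so these steps and ZFP708 itself cannot be told apart. Nothing states how many mothers, litters or cell lines the replicates came from, so the p-values below measure the spread between libraries, which may be technical. The titles of KO 2-cell embryos 7 and 8 repeat 1 library number and both read as replicate 7, while their running numbers and table columns differ, so they were kept as separate embryos under those running numbers. Each oocyte, zygote and 2-cell library held a single cell or embryo, and each blastocyst library pooled 10 embryos.

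Histone methylation is read by position. Methylation of H3 lysine 4 marks active promoters, methylation of H3 lysines 9 and 27 accompanies silent chromatin, and methylation of H3 lysine 36 covers transcribed gene bodies. After fertilization the mouse embryo first lives on RNA that the oocyte stored, degrades most of it, and switches on its own genome in a major wave at the 2-cell stage. Histone methylation is rewritten in the same window, which is why the RNAs of the erasers are of interest there. Kdm1a (LSD1) and Kdm1b (LSD2) are flavin-dependent amine oxidases that act on mono- and dimethylated H3K4, and Kdm1b is known for its role in the growing oocyte, where DNA methylation imprints are set. The other 8 members carry a JmjC domain that uses iron and 2-oxoglutarate. Kdm5a and Kdm5b remove H3K4me3, Kdm3a removes H3K9me1 and H3K9me2, Kdm4a and Kdm4c act on H3K9me3 and H3K36me3, Kdm2b acts on H3K36me2 and recruits a variant Polycomb complex to CpG islands, and Kdm6a (UTX) and Kdm6b (JMJD3) remove H3K27me3.

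Promoter windows of 3 members are printed because these members stand for the 2 opposite patterns of level described further on: Kdm5b and Kdm4c were low in oocytes and zygotes and high in 2-cell embryos, and Kdm1b went the other way. Windows are the 250 bases before an annotated start in RefSeq (GRCm38.p6), and each was found once, unchanged, in the NCBIM37 genome that the files use. CpG dinucleotides, the sites of DNA methylation, are in capitals.
Kdm5b, NCBIM37 chr1:136456505-136456754, plus strand: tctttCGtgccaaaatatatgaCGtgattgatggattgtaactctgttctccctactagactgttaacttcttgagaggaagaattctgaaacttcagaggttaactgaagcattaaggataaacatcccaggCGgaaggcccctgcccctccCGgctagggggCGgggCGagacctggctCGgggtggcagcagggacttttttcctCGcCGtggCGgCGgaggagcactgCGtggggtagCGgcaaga
Kdm4c, NCBIM37 chr4:73897533-73897782, plus strand: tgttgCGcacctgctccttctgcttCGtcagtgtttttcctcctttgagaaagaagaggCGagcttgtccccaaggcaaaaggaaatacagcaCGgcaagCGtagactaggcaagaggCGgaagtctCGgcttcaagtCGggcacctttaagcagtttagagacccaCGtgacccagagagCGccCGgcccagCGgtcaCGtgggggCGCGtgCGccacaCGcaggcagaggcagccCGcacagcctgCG
Kdm1b, NCBIM37 chr13:47138618-47138867, plus strand: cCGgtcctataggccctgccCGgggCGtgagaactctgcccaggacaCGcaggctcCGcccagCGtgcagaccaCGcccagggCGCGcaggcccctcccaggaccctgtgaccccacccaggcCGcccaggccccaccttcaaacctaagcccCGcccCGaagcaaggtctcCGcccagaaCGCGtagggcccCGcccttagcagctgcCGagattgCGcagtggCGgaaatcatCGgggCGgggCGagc
The Kdm1b window ends at the annotated start of the gene, the Kdm5b window runs 7 bases past it, and the Kdm4c window lies inside the annotated gene, the other Kdm4c window of RefSeq holding no CpG. The Kdm5b window holds 13 CpGs, the Kdm4c window 19 and the Kdm1b window 22, and 31.5%, 19.7% and 14.8% of all 32851 RefSeq windows of that length hold as many or more. All 3 windows, from members of both patterns, exceed the mean of 9.86 CpGs over all windows. Where a gene has more than 1 window, as Kdm4c does, the one richest in CpGs was printed, which favours such an excess. Of the 8 members with a window in that table, the richest windows were those of Kdm2b with 38 CpGs and of Kdm3a with 31. The GC box GGGCGG, counted on both strands, occurred 6 times in the Kdm1b window, once in the Kdm5b window and not in the Kdm4c window, and 32.7% of all windows hold at least 1. The E box CACGTG occurred in 2 places in the Kdm4c window and in neither of the others, and 6.02% of all windows hold it. Kdm5a and Kdm6b have no window in that table.

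The values are counts of reads per gene that the authors divided by DESeq2 size factors, and they are called normalized counts below. Whole reads could be recovered for every value, at 2486334 to 4844699 reads in each of the 43 libraries up to the 2-cell stage and 12469548 to 19596785 in each of the other 18. A single read was worth 0.208 to 0.397 normalized counts in the first set and 0.0441 to 0.0728 in the second. Members were compared by limma on log2(normalized count + 1), with p-values adjusted over all genes tested (Benjamini-Hochberg, threshold 0.05), and fold changes are on that scale, which understates the change of low genes. Conditions made by different library methods (single-cell cDNA libraries for oocytes, zygotes and 2-cell embryos, a directional poly(A) kit for mESCs, and a method not given in the sources used here for blastocysts) are set side by side and not tested, except blastocysts against 2-cell embryos.

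The labels were checked against marker genes. Zfp708 stood at 654 ± 107 normalized counts (SD, n = 3) in OE cells and 6.67 ± 0.34 in control E14 cells. In the KO libraries its RNA was present, at 206 ± 51.7 in KO zygotes against 120 ± 41.6 in WT zygotes (n = 7 each), as the frameshift allele allows, so it does not check the KO labels. The 8 oocyte markers summed to 741 to 1616 normalized counts in WT 2-cell embryos and 6.11 to 8.66 in WT blastocysts. The 8 blastocyst markers summed to 58.2 to 102 and 3760 to 4123. All 7 tested oocyte markers were called lower in blastocysts and all 8 blastocyst markers higher. Of these, 6 oocyte markers (Zp1, Zp2, Gdf9, Bmp15, Mos and Nlrp5) and Cdx2 passed the filter for testing through 1 of the groups only. Their calls are therefore no check of the labels. The KO 2-cell libraries stood apart from the WT ones in marker RNAs of somatic cells, including cumulus and granulosa cells, which surround an ovulated oocyte. The 14 markers of these cells summed to 76.7 to 16706 normalized counts in KO 2-cell embryos (median 848) and 1.93 to 13.5 in WT ones, and 11 of 14 had a mean of at least 1 in the KO embryos against 3 of 14 in the WT, where Fshr, Has2 and Ptx3 were at 0. KO 2-cell embryo 7 held the most (16706) together with no read of the 4 measured 2-cell markers, against 22.1 to 673 in the other KO and 19.5 to 432 in the WT 2-cell embryos, and KO 2-cell embryo 2 held 7290. Ptgs2 of the granulosa list was at 0 in all KO 2-cell embryos. The 10 feeder fibroblast markers were raised too, at 20.9 to 1050 in KO and 2.89 to 7.08 in WT 2-cell embryos. In the KO 9 of these 10 had a mean of at least 1, against 3 in the WT. Embryos 7 (1050) and 2 (583) were again the highest. Member values that rest on KO 2-cell embryos are therefore given with and without embryos 2 and 7. The part of somatic cells in them was not tested beyond that.

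**Figure D1:**
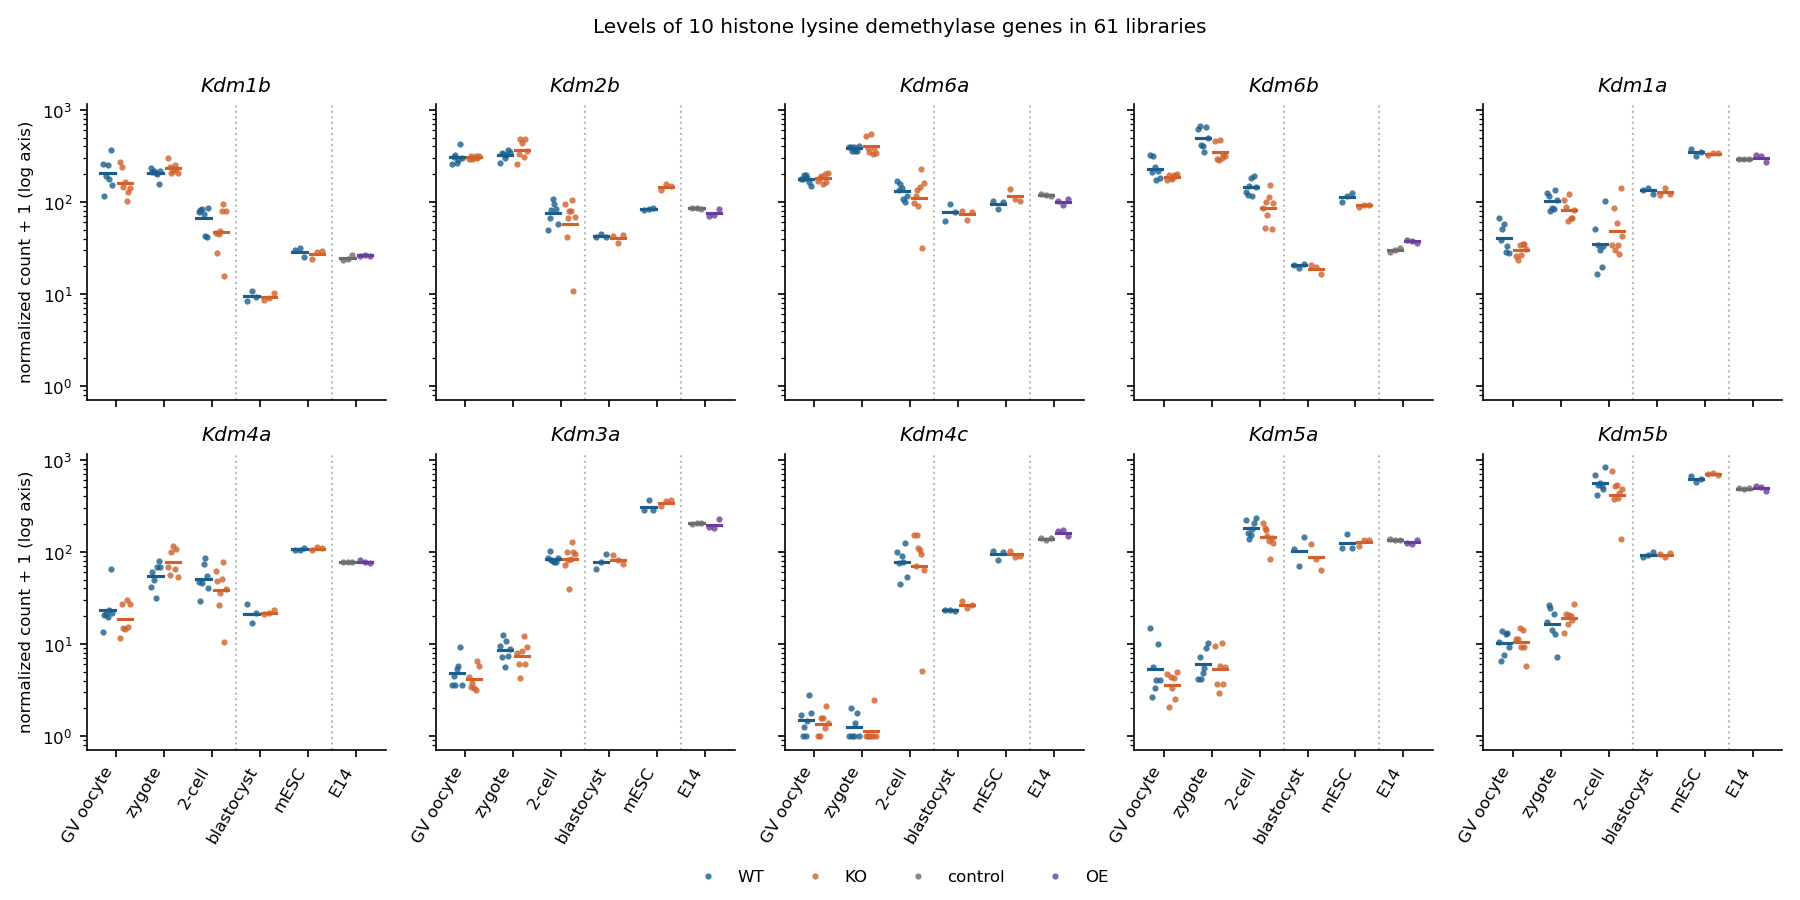
Normalized count plus 1 (log axis) of each member in each library, by stage or cell line on the horizontal axis. Points are libraries and short bars the mean of the log values. Dotted lines stand between 2-cell embryos and blastocysts and between mESCs and E14 cells, and they do not mark library methods. Kdm3a, Kdm4c, Kdm5a and Kdm5b lie low in oocytes and zygotes and high from the 2-cell stage on, and Kdm1b, Kdm2b, Kdm6a and Kdm6b lie highest in oocytes and zygotes.

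Of the 10 members, 8 fell into a set held in the oocyte (Kdm1b, Kdm2b, Kdm6a and Kdm6b) and a set that appeared with the 2-cell embryo (Kdm3a, Kdm4c, Kdm5a and Kdm5b), and Kdm1a and Kdm4a followed neither. Levels of different genes were compared per kilobase of annotated exon. On that scale Kdm1b (44.6), Kdm6b (33.8), Kdm2b (26.1) and Kdm6a (21.6) led in WT GV oocytes and together held 89.3% of the summed level of the 10 members. Kdm3a, Kdm4c, Kdm5a and Kdm5b together held 1.79% there, 1.86% in WT zygotes, 61% in WT 2-cell embryos and 57.1% in WT mESCs. Kdm5b alone, at 73.7 normalized counts per kilobase, held 38.4% in WT 2-cell embryos. In WT blastocysts Kdm1a led with 25.6 per kilobase, or 29.9% of the sum, and in WT mESCs Kdm5b (80.1), Kdm1a (66.9) and Kdm3a (62.5) led. These shares set the members against each other within a condition, and they say nothing of the amount of RNA in a cell. The sets were drawn from these same levels, so the shift in their shares at the 2-cell stage follows from that choice.

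**Figure D2:**
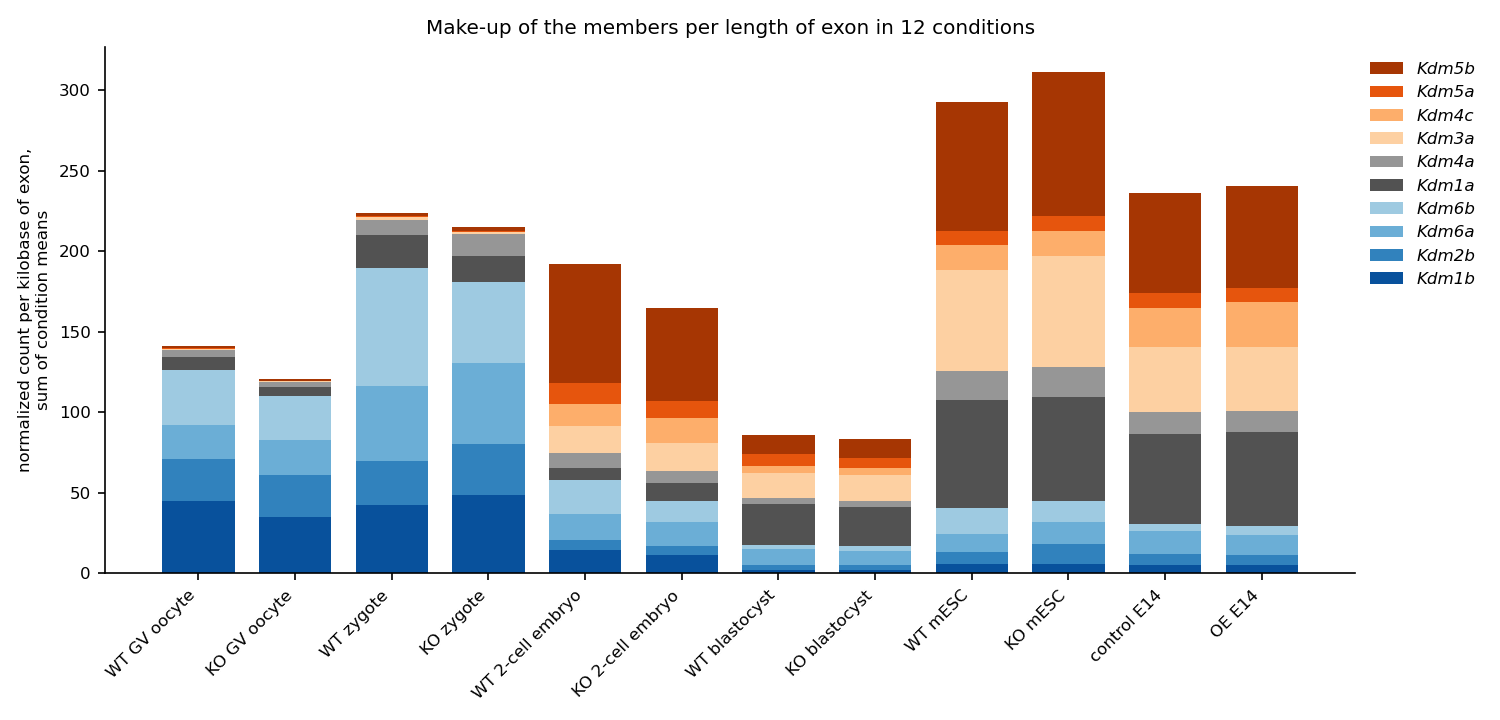
Condition means of the members, as normalized counts per kilobase of annotated exon, stacked for each of the 12 conditions. The blue part (Kdm1b, Kdm2b, Kdm6a, Kdm6b) makes up 89.3% of the bar in WT GV oocytes and 30.2% in WT 2-cell embryos, while the orange part (Kdm3a, Kdm4c, Kdm5a, Kdm5b) goes from 1.79% to 61%.

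Over the 12 conditions, the mean of Kdm4c spanned 769-fold, from 0.21 normalized counts in KO zygotes to 161 in OE cells, and that of Kdm3a 102-fold. Kdm5b spanned 72.8-fold and Kdm5a 66.5-fold. The narrowest spans were those of Kdm6a (5.61-fold) and Kdm4a (5.67-fold). In the order of condition means, most neighbours did not differ beyond their spread: for Kdm4a the library ranges overlapped at all 11 steps, for Kdm1a, Kdm5a and Kdm6a at 10 of 11, and for Kdm4c at 6 of 11. Described across the 12 condition means on the log2 scale, Kdm3a, Kdm4c, Kdm5a and Kdm5b followed each other with Pearson r of 0.947 or more in each pair, and Kdm1b, Kdm2b, Kdm6a and Kdm6b with 0.864 to 0.938. The sets were drawn from these same levels, and the means of each kind share libraries, depth and library method, so these correlations carry no test. Among 12302 genes whose highest condition mean was at least 10, the pattern of Kdm4c was most like those of 9930021J03Rik (r = 0.9952), Zbtb8a (0.9935) and Zfp263 (0.9931) over the 12 condition means. That of Kdm3a was most like those of Cbfb (0.9953), Smarcc1 (0.9938) and Fmr1 (0.9931).

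The first change followed fertilization. Between WT GV oocytes and WT zygotes, 6 of the 9 members tested were higher and none was lower, where 64.9% of 11609 genes tested were called and 32.3% were called higher. Kdm4c was too low to be tested, with 16 reads in all 7 oocytes and 7 reads in all 7 zygotes. Size factors set libraries to a common level, so these differences are relative to the other RNAs of the same library, and a change in molecules per cell cannot be read from them.

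Both H3K27 demethylases rose. Kdm6b was 171 to 319 normalized counts in WT GV oocytes (median 218) and 350 to 658 in WT zygotes (median 494), so no zygote overlapped the oocytes. The log2 fold change was 1.12 ± 0.17 (SE, limma adjusted p = 5.56e-06). Kdm6a was 148 to 197 in oocytes (median 177) and 356 to 401 in zygotes (median 392), again without overlap, at 1.11 ± 0.10 (limma adjusted p = 2.66e-09). Zygotes were the condition with the highest WT mean for both genes.

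The H3K4 demethylases of the amine oxidase family differed from each other. Kdm1a was 26.6 to 66.7 in WT GV oocytes (median 38.1) and 78.3 to 135 in WT zygotes (median 105), with no overlap and a log2 fold change of 1.32 ± 0.20 (limma adjusted p = 4.43e-06). Kdm1b was 215 ± 81.8 in oocytes and 204 ± 23.2 in zygotes (SD, n = 7 each), a log2 difference of 0.00 with a 95% interval of -0.38 to 0.38. Kdm2b likewise stood at 308 ± 57.7 and 324 ± 32.5, a log2 difference of 0.09 with an interval of -0.16 to 0.33. The remaining calls were higher in zygotes with overlapping ranges: Kdm4a went from 25.5 ± 17.4 to 56 ± 16.9 (log2 1.22 ± 0.26, limma adjusted p = 0.00034), Kdm3a from 4.07 ± 2.01 to 7.81 ± 2.32 (0.84 ± 0.26, limma adjusted p = 0.0069) and Kdm5b from 9.56 ± 2.88 to 16.7 ± 6.79 (0.69 ± 0.27, limma adjusted p = 0.0278). The Kdm5b call was lost without any one of 5 libraries (WT GV oocytes 2 and 4, WT zygotes 2, 3 and 5), where its log2 fold change was 0.57 to 0.62 and its limma adjusted p 0.0548 to 0.0696, and when values were scaled to total reads (0.46, limma adjusted p = 0.138).

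KO oocytes and zygotes, which share no library with the WT ones, gave 7 members higher and none lower of 9 tested, where 64.4% of 11550 genes were called and 31.9% were called higher. The same 6 members were called, at log2 fold changes of 1.47 for Kdm1a, 0.81 for Kdm3a, 2.04 for Kdm4a, 0.88 for Kdm5b, 1.15 for Kdm6a and 0.87 for Kdm6b. The other was Kdm1b, at 169 ± 61.3 in KO oocytes and 234 ± 34.3 in KO zygotes (0.53 ± 0.17, limma adjusted p = 0.00774). That call was lost under total reads, quantile normalization, edgeR and the fit of all 12 groups (limma adjusted p = 0.129, 0.115 and 0.0573, edgeR adjusted p = 0.0574, at 0.30 to 0.53). Kdm5a, not called in the deposited scaling (0.57, limma adjusted p = 0.101), was called with quantile normalization (0.94, limma adjusted p = 0.00883). The choice of scaling moves all genes in this step: the median log2 difference of all genes between WT zygotes and oocytes was 0.02 with the deposited size factors, -0.19 with total reads and 0.27 with quantile normalization, and 0.02, -0.18 and 0.20 in the KO. Under these scalings the split of called genes was 3744 higher and 3795 lower, 2712 and 4434, and 4662 and 3098 in the WT, and 3680 and 3759, 2791 and 4484, and 4458 and 3226 in the KO. Apart from Kdm5b, the members called in WT zygotes were called under all 3 scalings.

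The largest changes came at the 2-cell stage, and they went in opposite directions for different members. Between WT zygotes and WT 2-cell embryos, 4 members rose, 5 fell and Kdm4a alone was not called, where 75.1% of 11975 genes were called, 36.3% higher and 38.8% lower. Kdm4c is counted among the 4 only with a limit: genes were tested when 7 libraries reached a value of 1, and 1 of 7 zygotes did so for Kdm4c, so it entered through the 2-cell embryos, where it is high.

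The 4 risers were JmjC genes whose zygote levels were low. Kdm5b, an H3K4me3 demethylase, was 6.31 to 25.5 normalized counts in WT zygotes (median 16.3) and 417 to 825 in WT 2-cell embryos (median 531). Its log2 fold change was 5.09 ± 0.24 (limma adjusted p = 8e-14). Kdm5a, its closest relative here, was 3.18 to 9.17 in zygotes (median 4.49) and 138 to 231 in 2-cell embryos (median 175), at 4.89 ± 0.23 (limma adjusted p = 8.6e-14). For both genes every 2-cell embryo lay above every zygote.

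Kdm4c, an H3K9me3 and H3K36me3 demethylase, was at 0 in 4 of 7 WT zygotes and at most 1.03 in the others, and at 43.6 to 125 in WT 2-cell embryos (median 77). The log2 fold change of 5.94 ± 0.29 is given as a description, with no test, for the reason above. It depends on the pseudocount, because only 7 reads in all stood for Kdm4c in the zygotes, and over the settings tried it was 3.94 to 8.30. Kdm3a, which removes H3K9me1 and H3K9me2, was 4.68 to 11.5 in zygotes (median 7.74) and 76.1 to 101 in 2-cell embryos (median 80.8), at 3.29 ± 0.20 (limma adjusted p = 5.84e-12). Its 2-cell libraries were the tightest of the 10 members, with an SD of 8.47 on a mean of 83.

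The 5 members that fell included all 4 that led in the oocyte. Kdm2b was 266 to 365 in WT zygotes (median 331) and 48.6 to 106 in WT 2-cell embryos (median 81.4), a log2 fold change of -2.11 ± 0.16 (limma adjusted p = 1.76e-10). Kdm6b was 350 to 658 in zygotes (median 494) and 116 to 191 in 2-cell embryos (median 143), at -1.78 ± 0.17 (limma adjusted p = 5.02e-09). Kdm1b was 157 to 231 in zygotes (median 209) and 40.5 to 85 in 2-cell embryos (median 76.6), at -1.61 ± 0.18 (limma adjusted p = 7.43e-08). For these 3 genes and for Kdm6a (356 to 401 and 99.8 to 169, -1.55 ± 0.13, limma adjusted p = 1.02e-09), the groups did not overlap. The H3K27me3 demethylases thus rose into the zygote and fell after it, and their 2-cell means of 131 (Kdm6a) and 147 (Kdm6b) lay below their oocyte means of 176 and 235, a step that was not tested.

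Kdm1a fell as well, from 104 ± 22.4 to 40 ± 29.2 (SD, n = 7 each), at -1.57 ± 0.30 (limma adjusted p = 6.89e-05), but its ranges overlapped. WT 2-cell embryo 7 held 101 normalized counts of Kdm1a where the other 6 held 15.7 to 50.2. The same embryo had the lowest sum of 2-cell markers of the WT 2-cell embryos (19.5, others 65.3 to 432) and the highest Kdm5b (825). Kdm4a stood at 56 ± 16.9 in zygotes and 52.7 ± 19.3 in 2-cell embryos, a log2 difference of -0.10 with a 95% interval of -0.60 to 0.40. The 8 calls other than that of Kdm4c were kept under each of the 11 settings and without each of the 14 libraries, the median of all genes moving from -0.10 with the deposited size factors to 0.24 with total reads and -0.23 with quantile normalization.

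**Figure D3:**
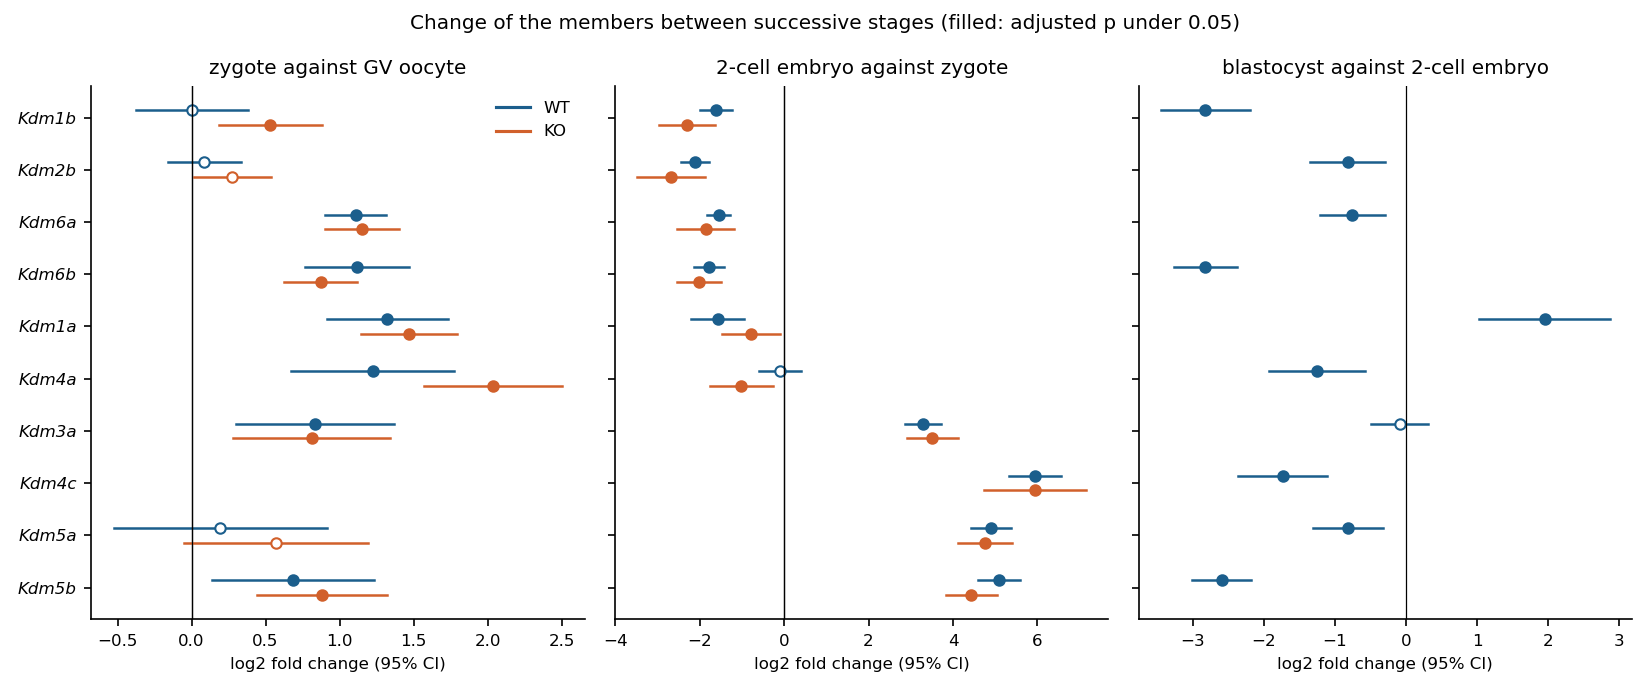
Log2 fold change with its 95% confidence interval for each member between successive stages, in WT (blue) and KO (orange) libraries; filled points have a limma adjusted p under 0.05, and no point is drawn where the gene was not tested. Kdm4c entered the middle panel only through the 2-cell embryos. In the middle panel Kdm3a, Kdm4c, Kdm5a and Kdm5b lie between 3.29 and 5.94, and Kdm1a, Kdm1b, Kdm2b, Kdm6a and Kdm6b lie below 0 in both genotypes; the right panel holds WT libraries only.

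KO embryos gave the same picture from their own libraries. Between KO zygotes and KO 2-cell embryos all 10 members were called, 4 higher and 6 lower, where 66.2% of 12395 genes were called, 33.1% in each direction. Kdm4c again entered only through the 2-cell embryos, with 1 of 7 KO zygotes at 1 or more. The risers were Kdm4c (log2 5.94 ± 0.58, a description), Kdm5a (4.76 ± 0.30), Kdm5b (4.43 ± 0.29) and Kdm3a (3.51 ± 0.29). Kdm2b (-2.67 ± 0.38), Kdm1b (-2.29 ± 0.32), Kdm6b (-2.02 ± 0.25) and Kdm6a (-1.85 ± 0.32) fell. Kdm4a (-1.01 ± 0.35, limma adjusted p = 0.0174) and Kdm1a (-0.77 ± 0.33, limma adjusted p = 0.0447) were called here as well. Without KO 2-cell embryos 2 and 7 the same members were called, where 71% of 12253 genes were. The log2 fold changes were then 6.57 for Kdm4c, 4.71 for Kdm5a, 4.72 for Kdm5b and 3.42 for Kdm3a. Those of the members that fell were -2.18 for Kdm2b, -1.90 for Kdm1b, -1.78 for Kdm6b, -1.56 for Kdm6a, -0.76 for Kdm4a and -1.17 for Kdm1a. The Kdm1a call was lost in 6 settings: without the filter, with size factors from these libraries alone, with total reads, with quantile normalization, with edgeR and with DESeq2 (log2 -0.77 to -0.46, adjusted p by the named tool or by limma 0.0583 to 0.266). The Kdm4a call was lost with total reads (-0.70, limma adjusted p = 0.077) and edgeR (-0.80, edgeR adjusted p = 0.0532).

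KO 2-cell embryo 7, the library without reads of 2-cell markers, showed the members at unlike levels. It held 4.08 normalized counts of Kdm4c, 9.91 of Kdm2b, 14.9 of Kdm1b, 9.62 of Kdm4a, 30.9 of Kdm6a, 50.1 of Kdm6b and 138 of Kdm5b, each the lowest of the 8 KO embryos, and 142 of Kdm1a, the highest. The other 7 embryos held 63 to 149 of Kdm4c, 40.3 to 103 of Kdm2b and 26.2 to 85.3 of Kdm1a. Kdm3a (97.6) and Kdm5a (141) lay within the range of the other embryos.

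From WT 2-cell embryos to WT blastocysts, Kdm1a rose and 8 members fell, where 65.8% of 13723 genes were called, 32.8% higher and 33% lower. The 2 stages were sequenced from single embryos and from pools of 10 by methods that may differ, so stage and method cannot be told apart, and in a pool a lower value in every cell and fewer cells that hold the RNA cannot be told apart either. Kdm1a was 15.7 to 101 in 2-cell embryos (median 32.2) and 122, 133 and 142 in the 3 blastocyst libraries, at 1.95 ± 0.43 (limma adjusted p = 0.00101). Kdm1b, the other LSD gene, was 40.5 to 85 and then 7.50, 8.20 and 9.90, at -2.82 ± 0.29 (limma adjusted p = 8.45e-07). The 2 amine oxidases differed in opposite directions per kilobase: Kdm1b stood at 44.6 and Kdm1a at 8.18 in WT GV oocytes, and Kdm1b at 1.77 and Kdm1a at 25.6 in WT blastocysts.

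Kdm6b fell to 18.2, 19.9 and 20.4 (-2.83 ± 0.21, limma adjusted p = 2.02e-08) and Kdm5b to 86, 91.7 and 97.9 (-2.60 ± 0.19, limma adjusted p = 2.71e-08), both below every 2-cell embryo. Kdm4c was 21.8, 22.2 and 22.4 (-1.74 ± 0.29, limma adjusted p = 0.000101), and Kdm4a 15.9, 20.4 and 25.8 (-1.25 ± 0.31, limma adjusted p = 0.00273). Kdm2b (-0.82 ± 0.25, limma adjusted p = 0.00882), Kdm5a (-0.81 ± 0.23, limma adjusted p = 0.00619) and Kdm6a (-0.75 ± 0.21, limma adjusted p = 0.00582) changed least of those called. The Kdm5a call was lost without WT blastocyst 2 (-0.54, limma adjusted p = 0.0687) and that of Kdm6a without WT blastocyst 1 (-0.60, limma adjusted p = 0.0573). Kdm3a stood at 83 ± 8.47 and 78.5 ± 15.7, a log2 difference of -0.09 with a 95% interval of -0.50 to 0.31. It was the only one of the 4 risers of the 2-cell stage without a call in this step.

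Blastocysts, mESCs and E14 cells are set side by side, without a test. Every member had a higher mean in WT mESCs than in WT blastocysts. Kdm5b stood at 91.8 ± 5.96 in WT blastocysts, 622 ± 46.6 in WT mESCs and 485 ± 7.24 in control E14 cells. Kdm3a stood at 78.5 ± 15.7, 310 ± 49.8 and 203 ± 2.08, and Kdm1a at 132 ± 10, 347 ± 31.8 and 291 ± 1.94. Kdm6b separated the ES cell lines most, at 113 ± 12 in WT mESCs and 29 ± 1.73 in control E14 cells.

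The differences between genotypes were smaller. KO libraries were compared with WT libraries of the same stage, and OE with control E14 cells. Of the members, none was called by limma in GV oocytes, 2-cell embryos or blastocysts, Kdm6b alone in zygotes and Kdm2b alone in mESCs.

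**Figure D4:**
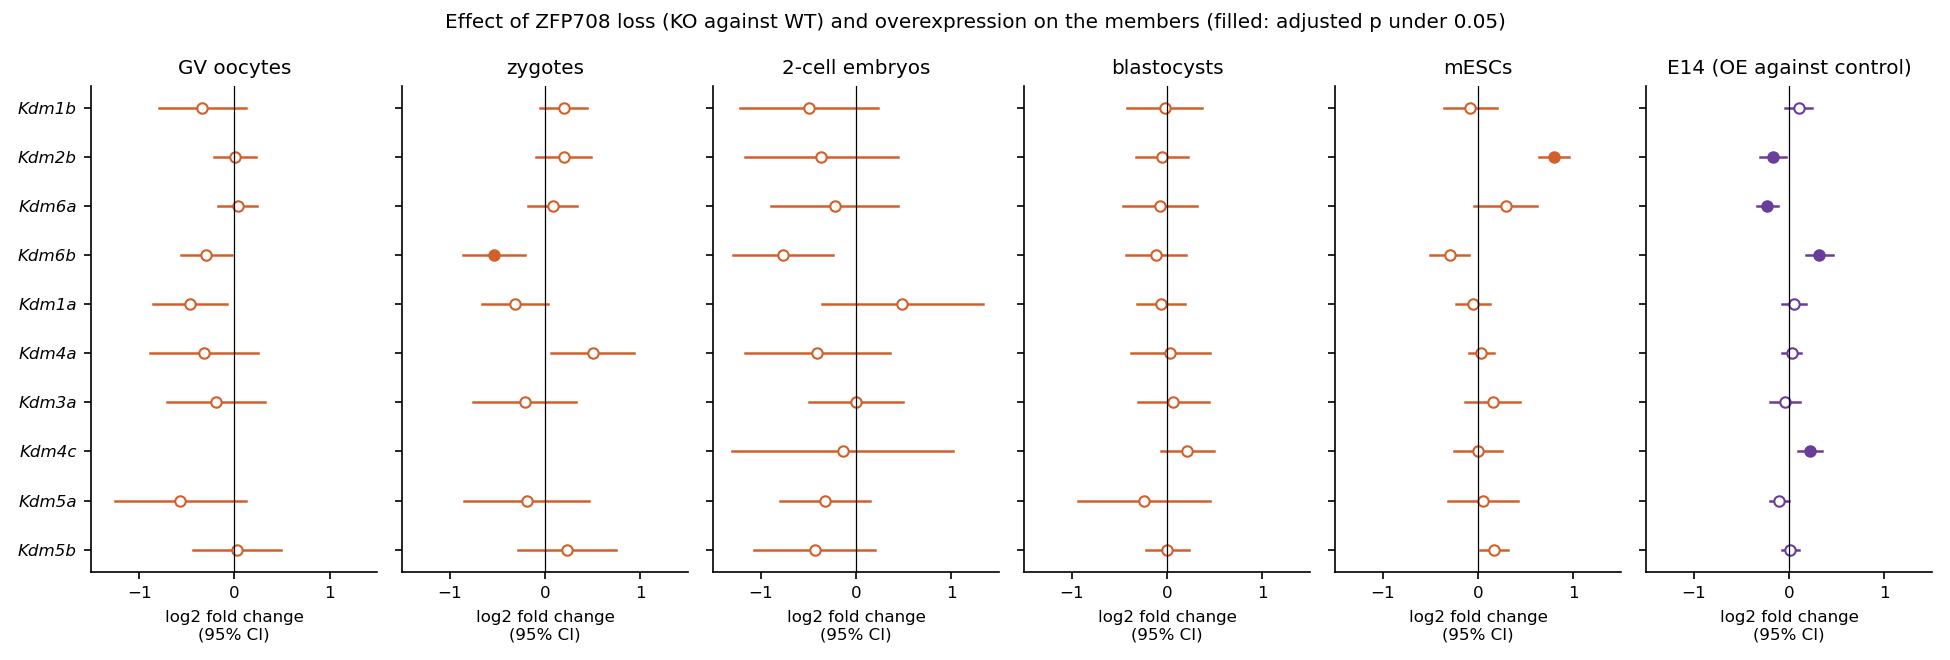
Log2 fold change with its 95% confidence interval for each member, KO against WT at 5 stages and OE against control in E14 cells; filled points have a limma adjusted p under 0.05, and Kdm4c was not tested in GV oocytes and zygotes. Kdm2b in mESCs (0.80) is the filled point farthest from 0.

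Kdm6b, the inducible H3K27me3 demethylase, was lower in KO zygotes. Its 7 KO zygotes held 284 to 474 normalized counts (median 314) and its 7 WT zygotes 350 to 658 (median 494), so the ranges overlapped. The log2 fold change was -0.54 ± 0.16 (SE, limma adjusted p = 0.0245), where 14.6% of 11168 genes were called, 8.19% higher and 6.38% lower. The call was kept under all 11 other settings and lost without KO zygote 3, WT zygote 1, WT zygote 2 or WT zygote 6, at limma adjusted p of 0.0615 to 0.0658 and log2 fold changes of -0.49 to -0.47. WT zygotes 1, 2 and 6 are the 3 with the highest Kdm6b (622, 658 and 650). RNAs of oocyte markers moved with genotype in the same libraries. The 8 markers summed to 8824 to 11462 normalized counts in KO zygotes and 11862 to 14696 in WT zygotes, without overlap, and 2 of 8 were called lower: Mos, a kinase of oocyte maturation, at 93 in KO and 1281 in WT (log2 -3.87, limma adjusted p = 5.49e-13) and Gdf9, a growth factor secreted by the oocyte, at 3041 and 5933 (-1.05, limma adjusted p = 0.000207). The median over the 8 was -0.02. Of the 3 blastocyst markers tested, Gata6 stood at 1.22 in KO and 3.62 in WT (log2 -1.07). Gata6 is near the floor and passed the filter through 1 of the groups only, so its difference is given as a description. In GV oocytes none of the 8 oocyte markers was called. Their part in the Kdm6b difference was not tested.

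The mean of Kdm6b was below that of the WT in KO libraries of the other 4 stages too, without a call. It was 187 ± 10.4 in KO and 235 ± 59.9 in WT GV oocytes (log2 -0.29 ± 0.13, limma adjusted p = 0.183). In 2-cell embryos it was 89.3 ± 33.1 in KO and 147 ± 29.9 in WT (-0.77 ± 0.25, limma adjusted p = 0.165), and without KO embryos 2 and 7 it was -0.53 (limma adjusted p = 0.389). In blastocysts it was 17.9 ± 2.03 and 19.5 ± 1.12 (-0.12 ± 0.14, limma adjusted p = 1), and in mESCs 91 ± 2.78 and 113 ± 12 (-0.30 ± 0.09, limma adjusted p = 0.0655). Whether the KO effect differed between stages was tested in 2 pairs: it was 0.24 lower in zygotes than in GV oocytes (95% interval of the difference -0.68 to 0.19) and 0.24 lower in 2-cell embryos than in zygotes (-0.86 to 0.39), with limma adjusted p of 0.564 and 0.721. Without KO 2-cell embryos 2 and 7 the second difference was 0.00 (-0.52 to 0.53, limma adjusted p = 0.997). No member was called in either test (1 in each, Kdm4a, had an unadjusted p under 0.05 in limma, and edgeR and DESeq2 called none), where 6.8% of 12411 genes (3.84% higher, 2.97% lower) and 1.44% of 13829 genes (1.21% higher, 0.224% lower) were called. Over all genes, 2533 of 12411 and 2162 of 13829 had an unadjusted p under 0.05 in limma. Without KO 2-cell embryos 2 and 7 no member was called in the second test either, Kdm4a was at -0.66 (from -0.91) with an unadjusted limma p of 0.0849, and 1.38% of 13846 genes were called. In the 2-cell comparison the fit of all 12 groups together called Kdm6b (at the same -0.77, limma adjusted p = 0.000398), a fit that called 3626 genes where the main fit called 89. Of 6954 exon bases of Kdm6b, 286 overlap exons of the antisense gene 1700064E03Rik, and the single-cell libraries do not mark strand, so reads there cannot be assigned.

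**Figure D5:**
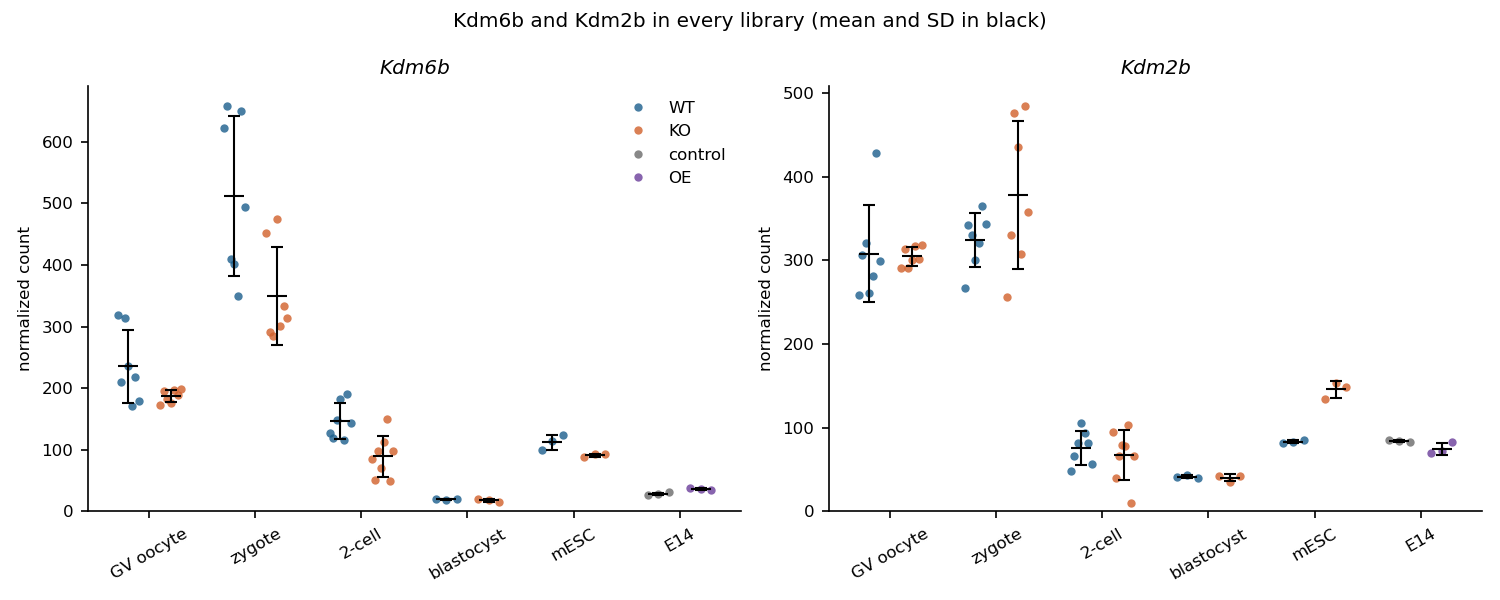
Normalized counts of Kdm6b (left) and Kdm2b (right) in every library by stage or cell line; points are libraries, black bars the mean and SD. Kdm2b is at 134 to 154 in KO mESCs and 81.6 to 85.7 in WT mESCs, and Kdm6b in zygotes overlaps between KO (284 to 474) and WT (350 to 658).

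Kdm2b was higher in KO mESCs. Kdm2b recruits the PRC1.1 Polycomb complex to unmethylated CpG islands and takes dimethyl groups off H3K36. It was 134, 154 and 149 normalized counts in the 3 KO libraries and 81.6, 82.7 and 85.7 in the 3 WT libraries, so the groups did not overlap. The log2 fold change was 0.80 ± 0.07 (SE, limma adjusted p = 0.00228), where 13.9% of 11963 genes were called, 8.26% higher and 5.6% lower. It was called in each fit without 1 library (0.76 to 0.85, limma adjusted p 0.000252 to 0.0259) and with KO mESC libraries 2 and 3, the most alike of the 3 (mean chi-square 1.68 per gene), averaged into 1 (0.77, limma adjusted p = 0.0103). In the fit of all 12 groups together the log2 fold change was the same 0.80 and the call was lost (limma adjusted p = 0.797), a fit where the spread of single embryos entered and 108 genes were called.

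Kdm2b was not called in the other KO conditions. The log2 difference of KO from WT was 0.00 in GV oocytes (95% interval -0.22 to 0.22), 0.19 in zygotes (-0.09 to 0.48), -0.36 in 2-cell embryos (-1.17 to 0.44, or 0.12 with an interval of -0.35 to 0.59 without KO embryos 2 and 7) and -0.05 in blastocysts (-0.32 to 0.22), and these intervals were not tested against that of mESCs. The feeder fibroblast markers summed to 4.28 to 7.11 in KO and 2.63 to 2.89 in WT mESCs, and the mESC markers to 4237 to 4292 and 3421 to 3912. Their part in the Kdm2b difference was not tested.

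Of the other members in mESCs, Kdm6b, Kdm5b and Kdm6a had library ranges that did not overlap but missed the threshold. The share of all genes with separate ranges in this comparison was not counted. Kdm5b was 683 to 711 in KO and 576 to 669 in WT (log2 0.16 ± 0.06, limma adjusted p = 0.119). Kdm6a was 102 to 139 and 81.8 to 100.2 (0.29 ± 0.14, limma adjusted p = 0.211). Without WT mESC 1 or 2 Kdm6b was called (limma adjusted p = 0.0487 and 0.0484), as it was by DESeq2 (adjusted p = 0.0255), and without WT mESC 2 Kdm3a was called (0.28, limma adjusted p = 0.0176), WT mESC 2 being the library farthest from the other WT ones.

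In GV oocytes no member was called, by limma, edgeR or DESeq2, where 3.64% of 11775 genes were called, 1.44% higher and 2.2% lower. Kdm1a was 22.5 to 34.1 in KO (median 29.7) and 26.6 to 66.7 in WT (median 38.1), and together with Kdm6b it was one of 2 members at an unadjusted p under 0.05 in limma (log2 -0.46 ± 0.19, limma adjusted p = 0.145). Of all 11775 genes, 2663 had an unadjusted p under 0.05 in limma. The split of all genes called was 170 higher and 259 lower, or 105 and 279 with total reads. In zygotes Kdm4a stood at 79.7 ± 26 in KO and 56 ± 16.9 in WT (0.50 ± 0.21, limma adjusted p = 0.115). In 2-cell embryos no member was called by limma, edgeR or DESeq2, 1 (Kdm6b) had an unadjusted p under 0.05 in limma, and 0.708% of 12578 genes were called, 0.7% higher and 0.00795% lower. Among these 12578 genes, 1878 had an unadjusted p under 0.05 in limma. Without KO embryos 2 and 7 again none was called, 1 (Kdm6b) had an unadjusted p under 0.05, and 0.647% of 12523 genes were called. The differences of several members rested on these 2 embryos: without them Kdm1a went from 0.49 to 0.08, Kdm1b from -0.49 to -0.10, Kdm4a from -0.41 to -0.16 and Kdm5b from -0.44 to -0.15. Kdm4c went from -0.14 (95% interval -1.30 to 1.01) to 0.48 (-0.06 to 1.03) and Kdm6a from -0.23 to 0.06, both with another sign, while Kdm5a stood at -0.33 and -0.38 and Kdm3a at 0.00 and -0.08. The median standard error of the members with all 8 embryos was 0.33, against 0.17 in zygotes.

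In blastocysts no member was called by limma, edgeR or DESeq2 and none had an unadjusted p under 0.05 in limma, where 0.00885% of 11295 genes were called (1 gene, higher). Kdm4c was the only member whose ranges did not overlap, at 23.6, 25.5 and 28.5 in KO and 21.8, 22.2 and 22.4 in WT (log2 0.21 ± 0.12, limma adjusted p = 1). The share of all genes with separate ranges was not counted here either. The widest intervals of the KO effect in blastocysts, apart from Kdm5a (-0.94 to 0.45), stayed within -0.46 and 0.49.

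In E14 cells, where ZFP708 was overexpressed, 4 members were called, at log2 changes of 0.32 or less, where 49.9% of 12257 genes were called, 21.9% higher and 28.1% lower. Kdm6b was 34.8, 36.5 and 38 in OE cells and 27.3, 28.9 and 30.8 in control cells (0.32 ± 0.06, limma adjusted p = 0.00188). Kdm4c was 146, 167 and 170 against 134, 141 and 141 (0.21 ± 0.06, limma adjusted p = 0.0103). Kdm6a was 92.6, 102 and 106 against 116, 117 and 120 (-0.23 ± 0.05, limma adjusted p = 0.0033). Kdm2b was 69.7, 72 and 82.9 against 82.7, 84.5 and 84.9 (-0.17 ± 0.06, limma adjusted p = 0.0406), with overlapping ranges. The Kdm2b call was lost in 5 of 6 fits that left out 1 library (limma adjusted p 0.09 to 0.143, kept without OE library 3) and in 6 of 12 other settings, and the Kdm4c call without control library 2 (0.19, limma adjusted p = 0.0534). Kdm5a was called with quantile normalization (-0.11, limma adjusted p = 0.0258, from -0.10 and 0.0717).

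These 4 calls rest on replicates that were close to 1 library sequenced again. The 3 control E14 libraries differed from each other by a mean chi-square of 1.07 to 1.12 per gene, where sampling noise alone gives about 1, and OE libraries 1 and 2 by 1.25, while OE library 3 differed from them by 6.96 and 7.16. With the near-identical libraries averaged, leaving 1 control and 2 OE samples, the log2 fold changes were close to those above (Kdm6b 0.30, Kdm4c 0.18, Kdm6a -0.21 and Kdm2b -0.13) and no member was called (limma adjusted p 0.336 to 0.662 for the 4), with 235 genes called in place of 6121. With 1 control sample such a fit has little power, so the missed threshold does not show that the differences are absent. The fit of all 12 groups called none either, at the same fold changes as the main values. Without OE library 3, 8 members were called, where the count over all genes also rose, to 7965 from 6121. The split of all genes called was 2680 higher and 3441 lower, and 3503 and 2971 with quantile normalization. Feeder fibroblast markers summed to 97.6 to 105 in control and 13.1 to 20.1 in OE cells, with 4 of 5 tested called lower. Of these 5, Col1a1, Col1a2 and Acta2 passed the filter through 1 of the groups only, as did Ptgs2 of the granulosa markers that follow. Calls of such genes carry no test. Cumulus and granulosa markers summed to 24.6 to 26.8 and 9.18 to 9.91, with 3 of 4 tested called lower, and the 7 mESC markers to 2920 to 2980 in control and 3621 to 3921 in OE cells, with 6 called higher. The groups did not overlap in any of these sums, and their part in the members' differences was not tested.

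Genes that work with or against the members are given by their counts beside the share of all genes called. Of 16 other histone demethylases, 11 were tested between WT GV oocytes and zygotes, and 7 rose and 3 fell, where 32.3% of all genes were called higher and 32.7% lower. Kdm7a, an H3K9 and H3K27 demethylase, rose from 169 to 423 (log2 1.33) and Kdm2a, the paralog of Kdm2b, from 14.5 to 37 (1.25), while Riox2 fell from 68.6 to 27.2 (-1.29) and Kdm4b from 5.35 to 1.66 (-1.19). Kdm4b passed the filter through 1 of the groups only, so its fall is given as a description. From zygotes to 2-cell embryos 8 rose and 2 fell of 13 tested (all genes 36.3% and 38.8%), but 5 of the 13 (Kdm4b, Kdm4d, Kdm8, Phf2 and Riox1) passed the filter through 1 of the groups only. Values went in both directions, with Riox1 at 0 in all 7 zygotes and 37.5 in 2-cell embryos, Riox2 going from 27.2 to 136 (2.27), Kdm4b from 1.66 to 7.95 (1.71) and Phf2 from 13.6 to 3.06 (-1.99). Between 2-cell embryos and blastocysts 3 rose and 5 fell of 16 (all genes 32.8% and 33%), among the latter Kdm7a, from 543 to 11.6 (-5.43). Kdm4d passed the filter in this step through 1 of the groups only.

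Of 20 genes for partners in the members' complexes, 19 were tested in each stage comparison. Rcor2 passed the filter through 1 of the groups only after fertilization, and Rcor2 and Rcor3 did so at the 2-cell stage. After fertilization 64.9% of all genes were called, 32.3% higher and 32.7% lower, and 12 of the 19 partners were called, 11 higher and 1 lower. Among them were Kmt2c (364 to 815, log2 1.18) and Kmt2d (215 to 456, 1.09), the methyltransferases that sit with Kdm6a, and Ncoa6 (85.8 to 211, 1.32) and Usp7 (491 to 868, 0.82) with the smallest p. At the 2-cell stage 6 rose and 9 fell, where 75.1% of all genes were called. Skp1a (3267 to 356, -3.22) and Pcgf1 (780 to 175, -2.17), both partners of Kdm2b in PRC1.1, fell, while Hdac1, the deacetylase that sits with Kdm1a, rose from 5.88 to 101 (3.96). From 2-cell embryos to blastocysts 7 rose and 8 fell, where 65.8% of all genes were called, with Kmt2d (412 to 29.5, -3.75), Pcgf1 (175 to 11.7, -3.77), Kmt2c (954 to 131, -2.83) and Bcorl1 (66.8 to 7.6, -2.94) among the latter.

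Of 17 histone methyltransferases that place the marks the members remove, 15 were tested after fertilization, where 12 rose and 2 fell (all genes 32.3% and 32.7%). Suv39h1, which writes H3K9me3, went from 230 to 27.5 (log2 -3.23), and Ezh2, which writes H3K27me3, from 399 to 762 (0.93). At the 2-cell stage 7 rose and 4 fell of 17 (all genes 36.3% and 38.8%), where Kmt2a and Ehmt2 passed the filter through 1 of the groups only. Setdb1 (313 to 68.3, -2.22), Suv39h2 (364 to 105, -1.81) and Ezh2 (762 to 212, -1.89) fell, and Setd2, which writes H3K36me3, rose from 253 to 613 (1.28). From 2-cell embryos to blastocysts 2 rose and 14 fell (all genes 32.8% and 33%), Setd2 among them (613 to 92.1, -2.71).

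Between genotypes the number of calls among these genes differed from stage to stage. In zygotes, where 14.6% of all genes were called, Suv39h1 was higher in the KO (68.5 against 27.5, log2 1.52, limma adjusted p = 0.00239), Kmt2b (55.5 against 96.3, -0.79) and Setd1a (41.3 against 64.5, -0.58) were lower, Paxip1 was lower (60.5 against 91.5, -0.60) and Jmjd6 was higher (117 against 86.1, 0.43). In GV oocytes 3.64% of all genes were called, 1.44% higher and 2.2% lower. There 3 of 15 methyltransferases were lower in the KO and none was higher: Kmt2b (20.3 against 50.2, -1.12), Ash1l (16.6 against 29.4, -0.77) and Setd2 (80.4 against 138, -0.69). Of 19 partners, Kmt2c was lower (250 against 364, -0.52) and Hdac2 was higher (144 against 104, 0.48). None of the 11 other demethylases tested was called. In 2-cell embryos and blastocysts none of the 3 lists had a call. In mESCs 4 partners and 2 methyltransferases were called, all at log2 changes between -0.33 and 0.26, where 13.9% of all genes were called. In E14 cells 4 of 14 other demethylases, 12 of 19 partners and 11 of 17 methyltransferases were called, against 49.9% of all genes, with Bcor, a partner of Kdm2b, at 27.9 in OE and 51.8 in control cells (-0.87, limma adjusted p = 8.07e-07). In the KO zygotes the median log2 difference was 0.08 over the 9 members tested and 0.03 over all genes, and in the mESCs 0.04 and -0.01.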

How the data were processed

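The authors aligned reads to mm9 (NCBIM37) with STAR 2.4.2a, used HTSeq for counts per gene of Ensembl 65 (reverse-stranded, also for single-cell libraries whose kit does not mark strand), and deposited counts divided by DESeq2 size factors, a signal per gene that sets depth equal across libraries. Whole reads were recovered from the deposited values (100% whole within 0.01). Of 18504 rows, 108 repeats were dropped and 26 symbols that a spreadsheet had turned into dates were restored. Each comparison was fitted on its own libraries with limma 3.58.1 (trended, robust, two-sided) on log2(value + 1), for genes that reached a value of 1 in a number of libraries equal to the smaller group's, with p-values adjusted over all of them. edgeR 4.0.16 and DESeq2 1.42.0 on the recovered reads were alternatives (R 4.3.3), and the fits were tested on simulated data. Exon lengths and positions came from GENCODE M1 on NCBIM37. All 10 members were named in every comparison, and up to 4 called genes of each other list with the smallest p; for Kdm4c and Kdm3a, the 3 genes of most similar pattern. A gene that this rule named is not reported here. Kdm2b and Kdm5a share 206 and 276 exon bases with antisense exons. The members and lists were chosen with earlier results of these data known. Near-identical libraries (mean chi-square per gene under 2) were averaged as an alternative. Nothing was printed from the authors' comparisons.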

Additional observations from a re-analysis of the deposited data

Results flagged for a closer look

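In 7 of 60 member and group combinations of 7 or 8 libraries, 1 library lay far from the others by Dixon's criterion, and chance gives about 3 (1 group in 20). WT GV oocyte 6 accounts for 3 of them, being the highest of 7 oocytes for Kdm2b (428.2, the next 321), Kdm3a (8.18, the next 4.7) and Kdm4a (64.2, the next 22.6). WT 2-cell embryo 7 was the highest for Kdm1a (101, the next 50.2), and WT 2-cell embryo 2 for Kdm3a (100.7, the next 84.7). WT zygote 6 was the lowest for Kdm1b (157, the median of 7 being 209). KO zygote 6 was the only one of 7 KO zygotes with reads of Kdm4c (1.47, the others 0).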

How the results depend on the processing

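Without any 1 library, the number of members called was 0 in all cases for KO against WT GV oocytes, 2-cell embryos and blastocysts, 0 to 1 in zygotes, 1 to 3 in mESCs, 2 to 8 for OE against control E14, 5 to 6 for WT zygotes against GV oocytes, 9 for WT 2-cell embryos against zygotes and 8 to 9 for WT blastocysts against 2-cell embryos. Under other settings the count changed for mESCs (2 with DESeq2, 0 with all 12 groups in 1 fit), for 2-cell embryos (1 with all 12 groups) and for E14 (5 with quantile normalization, 3 with no filter, size factors from these libraries, edgeR and DESeq2, 0 with all 12 groups and 0 with near-identical libraries averaged, 1 control sample against 2). Between stages it went from 6 to 5 for WT zygotes against GV oocytes (total reads, filter at 10), from 7 to 6 for KO zygotes against GV oocytes (filter at 10, total reads, edgeR, all 12 groups; 7 with quantile normalization, Kdm5a in place of Kdm1b) and from 10 to 8 (total reads, edgeR) or 9 (no filter, size factors from these libraries, quantile normalization, DESeq2) for KO 2-cell embryos against zygotes. Averaging turned the sign of the uncalled OE differences of Kdm3a (4.74e-05, from -0.05) and Kdm5b (-0.011, from 0.01), and over the 6 fits that left out 1 E14 library these ran from -0.141 to 0.00707 for Kdm3a and from -0.0192 to 0.0611 for Kdm5b, with both called without OE library 3. The sign turned without OE library 2 for both (0.00707 and -0.00273) and without OE library 1 for Kdm5b (-0.0192). In the KO stage comparisons, libraries were left out only for KO 2-cell embryos 2 and 7, chosen after seeing the data. Of the member results, 70 were called under no setting and 55 under at least 1.

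Replicate numbers were not found to pair the libraries: no comparison had every pair's correlation of deviations above 0.1 (-0.11 to 0.05 in GV oocytes, -0.02 to 0.02 in E14 cells). In blastocysts (-0.60 to 0.30) and in mESCs (-0.25 to 0.22), 2 of 3 pairs were above 0.1, and 3 libraries per group are too few to settle whether they were paired. With the replicate number as a block, no member call changed (0 members called in GV oocytes, 2-cell embryos and blastocysts, 1 in zygotes, 1 in mESCs and 4 in E14 cells), while the count of all genes called went from 429 to 209 in GV oocytes, 89 to 167 in 2-cell embryos, 1 to 0 in blastocysts, 1658 to 804 in mESCs and 199 to 408 for the change of the KO effect from zygotes to 2-cell embryos.

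In 2-cell embryos the count over all genes went from 89 to 9 with a pseudocount of 5, 54 with no filter, 12 with a filter at 10, 262 with edgeR, 917 with DESeq2 and 3626 with all 12 groups. In GV oocytes 429 became 194 with no filter, 974 with DESeq2 and 63 with all 12 groups. The fit of all 12 groups gave 963 in zygotes (from 1628), 108 in mESCs (from 1658) and 210 in E14 cells (from 6121), and averaging gave 750 and 235 in the last pair. In blastocysts 1 became 0 with no filter and with all 12 groups, and 3 with DESeq2. For the change of the KO effect from zygotes to 2-cell embryos, 199 became 93 with a pseudocount of 5, 84 with quantile normalization, 386 with edgeR and 742 with DESeq2. Without any 1 library, counts over all genes ran from 152 to 781 in GV oocytes, 1214 to 1902 in zygotes and 28 to 202 in 2-cell embryos. They ran from 0 to 1 in blastocysts, 237 to 4052 in mESCs and 4802 to 7965 in E14 cells. For the WT stage steps they were 7312 to 7599 into zygotes, 8960 to 9291 into 2-cell embryos and 7788 to 9489 into blastocysts. The causes of these moves were not tested. Depth limits Kdm4c before the 2-cell stage, with 16 reads in all WT and 9 in all KO GV oocytes, 7 in all WT and 5 in all KO zygotes, against 8 to 40 reads per library for Kdm3a and 4 to 58 for Kdm5a.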
